A study of Mus musculus with 10 samples.

Results

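The Cyp2c genes encode cytochrome P450 enzymes of the 2C subfamily, and here they comprised every annotated probe set whose gene symbol on the array platform begins with Cyp2c. There were 14 such probe sets among 23099 with a gene annotation. Of these, 13 carried a single symbol and 1 carried 4 symbols (Cyp2c69, Cyp2c67, Cyp2c68 and Cyp2c40), so that it was not assigned to any one of them. Cyp2c65, Cyp2c55 and Cyp2c66 led the group because they were chosen by their measured levels and KO minus WT differences in these same arrays. Those differences are therefore given as a description with no p-value, and any count of calls in the same contrasts supports nothing about these genes.

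Expression was measured on 10 Affymetrix whole-transcript arrays of colonic organoids, epithelial cultures grown in Matrigel from crypt cells of male mice. The knockout (KO) organoids came from homozygous mice with loxP sites around exons 1 and 2 of the PPARγ gene and Cre recombinase under the villin promoter, which is active in intestinal epithelium. The wild-type (WT) organoids came from littermates, and all animals were on a C57BL/6J background. KO and WT each contributed 3 mice. The 4 groups were KO with 1 µM rosiglitazone, an agonist of the nuclear receptor PPARγ (3 arrays, of which replicate 1 is mouse 46, replicate 2 mouse 45 and replicate 3 mouse 44), KO with the vehicle 0.1% DMSO (2 arrays, mice 46 and 44), WT with 1 µM rosiglitazone (3 arrays, of which replicate 1 is mouse 48, replicate 2 mouse 42 and replicate 3 mouse 47) and WT with the vehicle (2 arrays, mice 42 and 47). Treatment lasted 24 h in every group, and the culture medium shared by all of them contained Wnt, Noggin, R-spondin and epidermal growth factor. The comparisons ask how the Cyp2c genes differ with the PPARγ genotype, with the drug, and in the drug response between genotypes.

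Cyp2c enzymes sit in the membrane of the endoplasmic reticulum and take electrons from cytochrome P450 reductase. They convert arachidonic and linoleic acid to epoxides and hydroxylated fatty acids, which epoxide hydrolases and other enzymes then process, and they also metabolise drugs. In the mouse most Cyp2c enzymes are best known from the liver, while Cyp2c55, Cyp2c65 and Cyp2c66 are known from the gastrointestinal tract. The genes form a cluster of closely related copies on chromosome 19, apart from Cyp2c23, which lies elsewhere on that chromosome. In the liver, transcription factors such as HNF4α and the xenobiotic receptors CAR and PXR act on several Cyp2c genes.

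The sequences just upstream of the 3 lead genes are shown because these genes differ in their levels in the arrays described next, and because the upstream stretches of Cyp2c65 and Cyp2c66 are much alike. They are from RefSeq on build GRCm38.p6, on the plus strand at chr19:39060756-39061005 (Cyp2c65), chr19:39006769-39006939 (Cyp2c55) and chr19:39113648-39113897 (Cyp2c66), and each ends just before the annotated start of its gene. The Cyp2c55 stretch is shorter because the transcript start that sets its window lies inside the annotated gene. Capitals mark CAAAGTCC, the core of the binding element of HNF4.
Cyp2c65: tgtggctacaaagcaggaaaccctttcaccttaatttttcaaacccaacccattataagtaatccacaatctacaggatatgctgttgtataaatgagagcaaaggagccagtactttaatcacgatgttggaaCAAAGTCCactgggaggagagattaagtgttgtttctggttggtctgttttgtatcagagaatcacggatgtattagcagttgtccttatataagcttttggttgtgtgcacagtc
Cyp2c55: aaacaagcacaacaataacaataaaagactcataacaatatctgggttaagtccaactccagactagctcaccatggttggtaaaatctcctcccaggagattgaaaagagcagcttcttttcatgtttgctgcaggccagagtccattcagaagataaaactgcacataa
Cyp2c66: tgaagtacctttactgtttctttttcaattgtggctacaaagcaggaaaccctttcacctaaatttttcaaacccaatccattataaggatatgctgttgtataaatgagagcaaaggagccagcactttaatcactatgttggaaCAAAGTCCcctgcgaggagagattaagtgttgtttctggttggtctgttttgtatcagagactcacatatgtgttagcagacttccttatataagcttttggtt

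Promoter windows running from 250 bases before to 50 bases after a transcript start were held for 13 of the 15 Cyp2c genes named by the probe sets, 14 windows in all. The 250 bases before the start were aligned for each pair of genes, and gap columns counted against identity. Between Cyp2c65 and Cyp2c66 identity was 74.6%, with 208 matching bases over 279 alignment columns, of which 221 were free of gaps. It was 51.8% between Cyp2c55 and Cyp2c65 and 47.6% between Cyp2c55 and Cyp2c66. Cyp2c68 and Cyp2c69 were the most alike of all pairs on this measure, at 91.3%. Searched on both strands, CAAAGTCC was held by 7 of the 14 Cyp2c windows (Cyp2c65, Cyp2c66, Cyp2c67, Cyp2c68, Cyp2c40, Cyp2c69 and Cyp2c70), against 1.42% of the 32851 windows of all genes. It began 116 bases before the start of Cyp2c65 and 104 bases before that of Cyp2c66. The longer form CAAAGTCCA, which contains it, was held by 6 of the 14 windows, against 0.475% of all, and Cyp2c66 was the one that dropped out. The nuclear receptor half-site AGGTCA was held by 3 of the 14 windows (Cyp2c29, Cyp2c39 and Cyp2c70), against 16.3% of all. The direct repeat AGGTCANAGGTCA, the consensus element of PPAR with RXR, contains that half-site and was held by 0 of the 14 windows, against 0.0396% of all. TATAAA was held by 10 of the 14 windows, against 13.6% of all. The Cyp2c windows are copies of one another and do not count as independent cases.

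Several facts of the whole series bear on these values. Array medians lay between 3.54 and 3.72 on the log2 scale. The arrays of KO mouse 46 stood apart on the first principal component (27.4% of the variance), at -31.75 in rosiglitazone and -39.3 in vehicle, while the other arrays lay from -4.1 to 19.6. The probe set of Pparg itself read 7.37 to 8.78 in KO arrays and 7.59 to 8.41 in WT arrays. Where its probes lie relative to the floxed exons is unknown here. It therefore does not serve as a check of the deletion, and each genotype direction rests on the labels. A probe set was called above background on an array when it exceeded the 95th percentile of 1182 probe sets for olfactory and vomeronasal receptors, which lay between 2.57 and 2.97 on the 10 arrays.

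Of the Cyp2c family, Cyp2c55 was the only member above background on all 10 arrays. Cyp2c65 was above background on 5 of 5 WT arrays and on 0 of 5 KO arrays. Cyp2c66 was above background on 3 of 5 KO arrays and 4 of 5 WT arrays. Cyp2c23, an epoxygenase known from kidney and endothelium, reached it on 4 of 5 KO arrays and 3 of 5 WT arrays, and Cyp2c37, a hepatic enzyme, on 3 of 5 arrays of each genotype. Cyp2c70, the liver enzyme that makes muricholic acids, reached it on 1 KO array. The other 8 probe sets (Cyp2c29, Cyp2c38, Cyp2c39, Cyp2c50, Cyp2c54, Cyp2c67, Cyp2c68 and the probe set with several symbols) were not above background on any array. Thus 6 of the 14 members exceeded background somewhere, against 77.6% of all annotated probe sets. With the background set at the 90th percentile, 3 members exceeded it on all arrays in place of 1, and at the 99th percentile 3 members exceeded it on at least 1 array in place of 6. The share of all probe sets was not counted at these settings or for all arrays, so these counts have no yardstick.

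**Figure D1:**
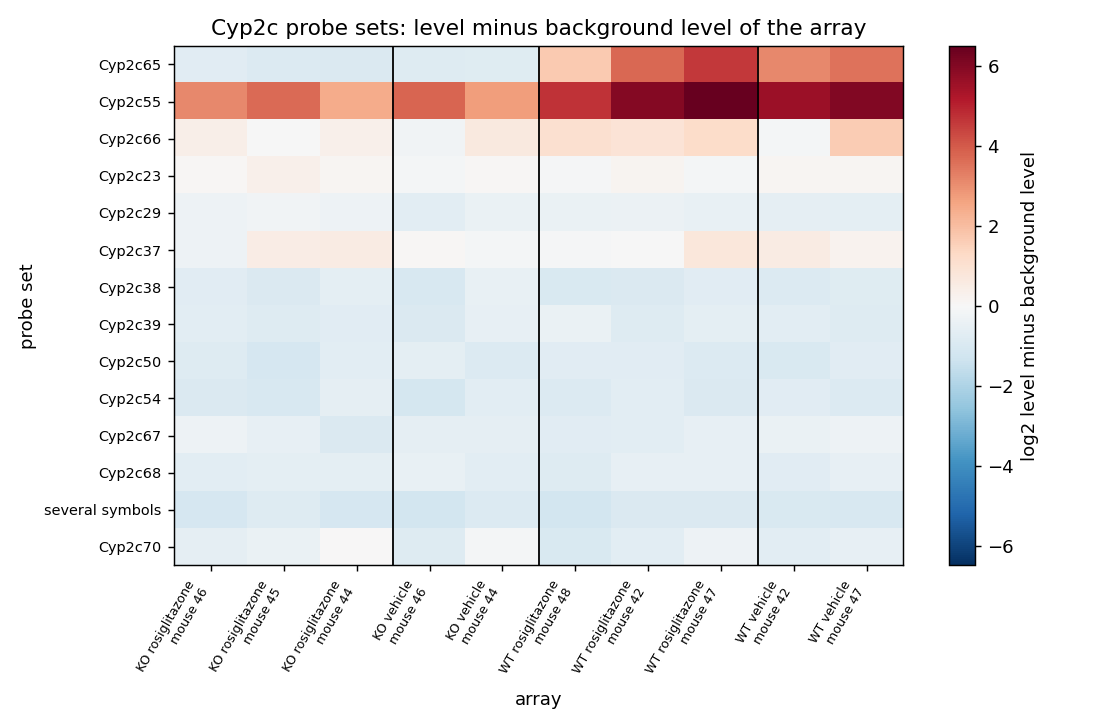
Level of each of the 14 Cyp2c probe sets (rows) minus the background level of the same array (log2), on each of the 10 arrays (columns, by group and mouse). Red cells lie above background and blue cells below. Cyp2c55 is above it in every column, and Cyp2c65 in the 5 WT columns and none of the KO columns.

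Cyp2c65 was the member with the widest gap between genotypes. Cyp2c65, known in mice for making epoxides and hydroxylated products of arachidonic acid, read 2.04, 1.75 and 1.86 in KO rosiglitazone replicates 1, 2 and 3, and 2.14 and 1.91 in KO vehicle. It read 4.60, 6.30 and 7.24 in WT rosiglitazone replicates 1, 2 and 3, and 5.74 and 6.16 in WT vehicle. The 2 ranges did not overlap, and the lowest WT array stood 2.46 log2 units above the highest KO array. The spread was narrow among KO arrays, all of them in the background range, and wide among WT rosiglitazone arrays. Group means were 1.88 ± 0.15 in KO rosiglitazone (SD, n = 3), 2.02 ± 0.16 in KO vehicle (SD, n = 2), 6.05 ± 1.34 in WT rosiglitazone (SD, n = 3) and 5.95 ± 0.30 in WT vehicle (SD, n = 2). In the fit, KO minus WT was -4.16 (SE 0.50) in rosiglitazone and -3.92 (SE 0.61) in vehicle. Because Cyp2c65 did not exceed background in KO, its fold change is only a bound. Measured against the mean background level of the KO arrays, Cyp2c65 was at least 9.86-fold lower in KO than in WT with rosiglitazone and at least 8.62-fold lower with vehicle. In RNA from whole organoids, fewer cells of a type and less RNA per cell cannot be told apart.

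Cyp2c55 was lower in KO while still clearly expressed there. Cyp2c55, an arachidonic acid hydroxylase inducible through CAR and PXR in mouse liver, read 5.90, 6.34 and 5.25 in KO rosiglitazone replicates 1, 2 and 3, and 6.76 and 5.44 in KO vehicle. It read 7.57, 8.52 and 9.25 in WT rosiglitazone replicates 1, 2 and 3, and 8.19 and 8.62 in WT vehicle. The 2 ranges again did not overlap, and the gap between the lowest WT array and the highest KO array was 0.80. Group means were 5.83 ± 0.55 in KO rosiglitazone (SD, n = 3), 6.10 ± 0.94 in KO vehicle (SD, n = 2), 8.45 ± 0.84 in WT rosiglitazone (SD, n = 3) and 8.40 ± 0.30 in WT vehicle (SD, n = 2). KO minus WT was -2.62 (SE 0.45) in rosiglitazone, a 6.13-fold lower level, and -2.31 (SE 0.55) in vehicle, a 4.94-fold lower level.

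Cyp2c66, the close relative of Cyp2c65, was faint, and its KO and WT arrays overlapped. It read 3.18, 2.61 and 3.15 in KO rosiglitazone replicates 1, 2 and 3, and 2.73 and 3.36 in KO vehicle. It read 3.91, 3.45 and 3.85 in WT rosiglitazone replicates 1, 2 and 3, and 2.48 and 4.25 in WT vehicle. Both the lowest value of all 10 arrays, 2.48, and the highest, 4.25, were WT vehicle arrays. Group means were 2.98 ± 0.32 in KO rosiglitazone (SD, n = 3), 3.05 ± 0.44 in KO vehicle (SD, n = 2), 3.74 ± 0.25 in WT rosiglitazone (SD, n = 3) and 3.37 ± 1.25 in WT vehicle (SD, n = 2). KO minus WT was -0.76 (SE 0.38) in rosiglitazone and -0.32 (SE 0.46) in vehicle.

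For each of the 3 genes the group means fell in the same order, highest in WT rosiglitazone, then WT vehicle, KO vehicle and KO rosiglitazone. The drug and vehicle means of one genotype differed by less than the larger SD of the pair for each gene. The step between the genotypes exceeded the larger SD in both treatments for Cyp2c65 and Cyp2c55. For Cyp2c66 it exceeded the larger SD in rosiglitazone and stayed within it in vehicle. The 3 genes were chosen by these same genotype differences, so their size against the SD is description only and supports nothing. The probe sequences were not at hand, so binding of one gene's RNA to the probes of a near-identical relative was not tested.

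**Figure D2:**
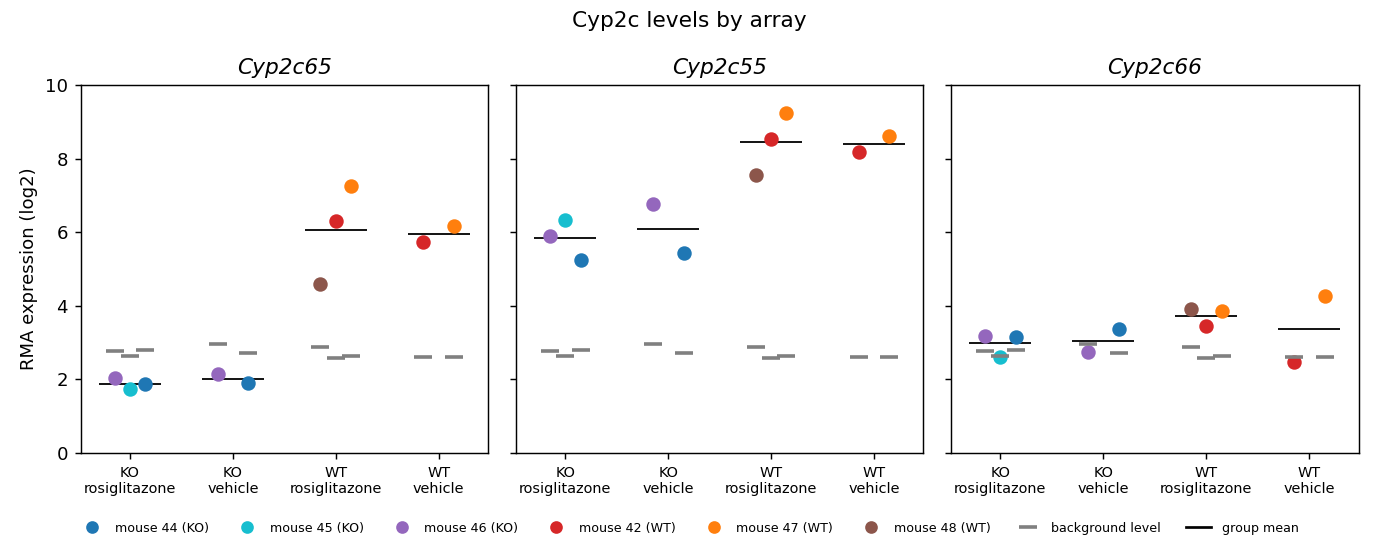
RMA expression (log2) of Cyp2c65, Cyp2c55 and Cyp2c66 on each array, by group, with 1 point per array coloured by mouse. Black lines are group means and grey dashes the background level of each array. All KO points of Cyp2c65 lie at or below 2.14, under the grey dashes, and all WT points at or above 4.60, while KO and WT points of Cyp2c66 overlap.

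Among the 14 members, 2 (Cyp2c65 and Cyp2c55) had all KO arrays below all WT arrays, and 0 had the reverse. Over all annotated probe sets 1.02% had all KO below all WT and 0.905% all KO above all WT. A total of 8 of 23099 probe sets (0.0346%), these 2 genes included, had a KO mean below the WT mean by at least as much as Cyp2c55. In limma's test adjusted by the Benjamini-Hochberg method over all 23099 probe sets, 1 member, Cyp2c65, was among the 5 called in rosiglitazone (0.0216%), and among the 4 called lower in KO (0.0173%). In vehicle 0 of 14 members and 0% of all probe sets were called. At an unadjusted p under 0.05, 2 of 14 members passed in each treatment, against 1110 probe sets in rosiglitazone and 1314 in vehicle. These counts use the contrasts that chose the lead genes and are given as description only. They also turn on single arrays. In rosiglitazone 2 members were called without WT rosiglitazone replicate 1 (mouse 48), 1 without WT rosiglitazone replicate 3, and 0 without any 1 of the other 8 arrays or without both arrays of mouse 46. In vehicle 1 member was called without WT rosiglitazone replicate 1. Over all alternatives run, the Cyp2c65 difference lay between -4.89 and -3.57 in rosiglitazone and between -4.13 and -3.64 in vehicle. That of Cyp2c55 lay between -3.31 and -2.22 in rosiglitazone and between -2.97 and -1.64 in vehicle. With all KO arrays of these 2 genes below all WT arrays, leaving out arrays could not turn the sign. The unchanged direction therefore supports nothing. For Cyp2c66 the range was -0.90 to -0.49 in rosiglitazone and -1.21 to 0.56 in vehicle.

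The other 11 Cyp2c probe sets showed no genotype difference past the test. In rosiglitazone 9 were higher and 2 lower in KO, from -0.09 (Cyp2c39, a retinoic acid hydroxylase of mouse liver) to 0.37 (Cyp2c70), with a median of 0.08 against 0.00 over all probe sets. In vehicle 10 were higher and 1 lower in KO, from -0.19 (Cyp2c37) to 0.34 (Cyp2c70), with a median of 0.26 against 0.03 over all probe sets. Their adjusted p (limma) was 0.999 in rosiglitazone and from 0.855 to 0.996 in vehicle, and 0 of 11 had an unadjusted p under 0.05 in either. With 8 of the 11 below background on every array, these differences are mostly between dim readings. In vehicle the background level itself was 2.97 and 2.71 on the KO arrays, against 2.61 and 2.62 on the WT arrays. Of 77 other cytochrome P450 probe sets, 56 were higher and 21 lower in KO in vehicle, with a median of 0.14. In rosiglitazone 48 were higher and 29 lower, with a median of 0.05. The part of the background level in these differences was not tested.

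**Figure D3:**
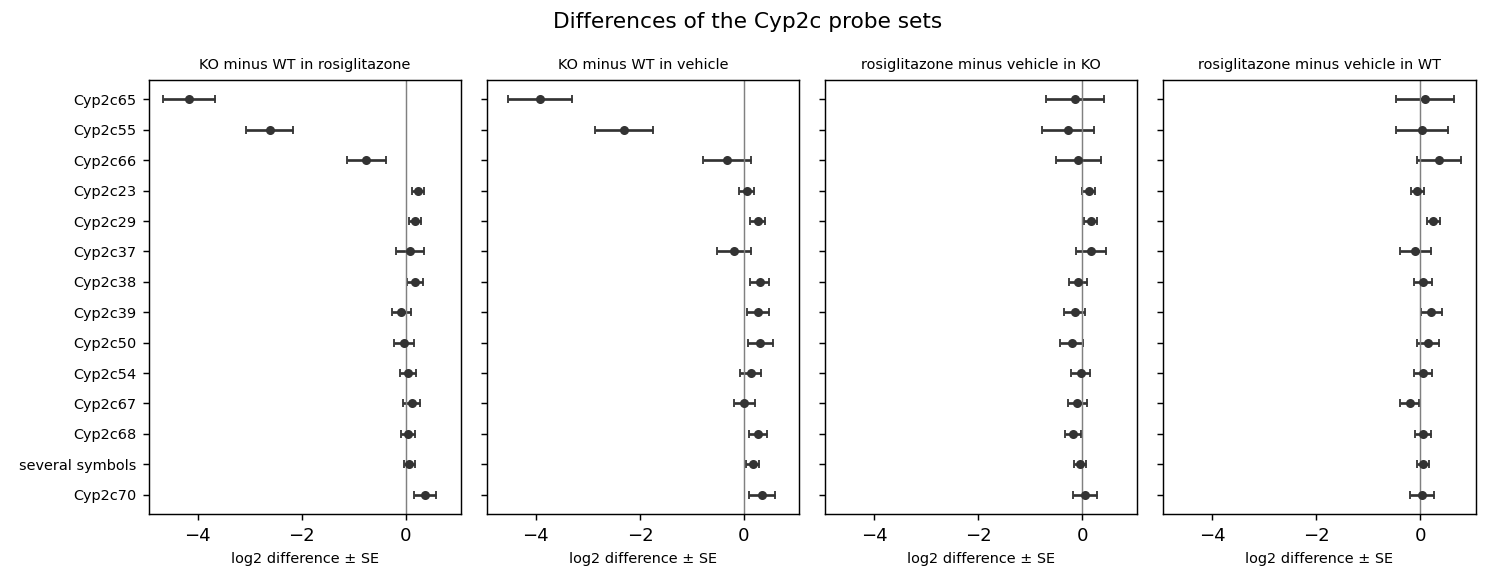
Log2 difference (point) and its standard error (bar) for each of the 14 Cyp2c probe sets in 4 comparisons, from left to right KO minus WT in rosiglitazone, KO minus WT in vehicle, rosiglitazone minus vehicle in KO and rosiglitazone minus vehicle in WT. In both genotype panels Cyp2c65 and Cyp2c55 lie far to the left of the other probe sets, and in both drug panels all 14 lie between -0.27 and 0.37.

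Along chromosome 19 the genes with the large genotype differences, Cyp2c55 and Cyp2c65, lay at one end of the cluster. In RefSeq gene order Cyp2c55, Cyp2c65 and Cyp2c66 stand next to one another at the start of the cluster, followed by Cyp2c29. KO minus WT was 0.18 in rosiglitazone and 0.26 in vehicle for Cyp2c29, a hepatic epoxygenase. Of the 6 nearest protein-coding genes, 3 on each side, 5 were measured (Noc3l, Tbc1d12 and Hells before the cluster, Pdlim1 and Aldh18a1 after it). Their KO minus WT differences ranged from -0.09 to 0.08 in rosiglitazone (adjusted p = 0.999, limma) and from -0.19 to 0.28 in vehicle (adjusted p from 0.858 to 0.975, limma).

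**Figure D4:**
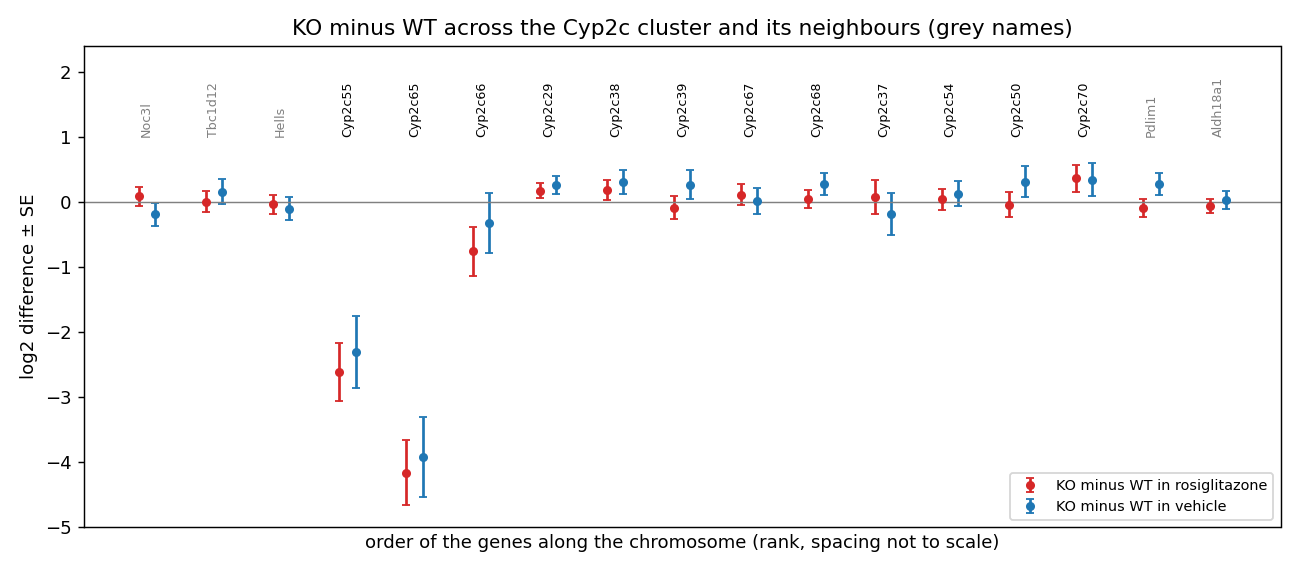
KO minus WT difference (log2, point) with its standard error (bar) for the Cyp2c probe sets of the cluster and the measured neighbouring genes (grey names), in order along the chromosome. Red points are in rosiglitazone and blue points in vehicle. Cyp2c55 and Cyp2c65 stand at -2.31 or below, Cyp2c66 between them and 0, and the other genes near 0.

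Rosiglitazone moved no Cyp2c probe set past the test in either genotype. For Cyp2c65, rosiglitazone minus vehicle was -0.14 in KO (SE 0.56, 95% interval -1.38 to 1.10), between arrays that were all in the background range, and 0.10 in WT (SE 0.56, 95% interval -1.14 to 1.34). For Cyp2c55 it was -0.27 in KO (SE 0.50, 95% interval -1.38 to 0.84) and 0.04 in WT (SE 0.50, 95% interval -1.07 to 1.16). For Cyp2c66 it was -0.07 in KO (SE 0.42, 95% interval -1.01 to 0.87) and 0.37 in WT (SE 0.42, 95% interval -0.57 to 1.31). Adjusted p (limma) was 1.00 for each of these, and the intervals still allow changes of over 1 log2 unit in Cyp2c65 and Cyp2c55. This fit ignores the pairing of arrays by mouse and includes the mice without a vehicle array. With the pairing kept, as given below, the WT difference was 0.82 for Cyp2c65 and 0.48 for Cyp2c55. The KO difference was then -0.07 and -0.53 in the same order. In KO 0 of 14 members were called, against 0% of all probe sets, and 0 members but 706 probe sets had an unadjusted p under 0.05. In WT 0 of 14 were called, against 0% of all probe sets, and 0 members but 229 probe sets had an unadjusted p under 0.05. Over the other 11 Cyp2c probe sets rosiglitazone minus vehicle in KO ran from -0.20 (Cyp2c50) to 0.17 (Cyp2c37), with a median of -0.04 against -0.01 over all probe sets. In WT it ran from -0.20 (Cyp2c67) to 0.25 (Cyp2c29), with a median of 0.05 against 0.01.

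The difference between the drug responses, KO minus WT, was -0.24 for Cyp2c65 (SE 0.79, 95% interval -1.99 to 1.51), -0.31 for Cyp2c55 (SE 0.71, 95% interval -1.89 to 1.27) and -0.44 for Cyp2c66 (SE 0.60, 95% interval -1.77 to 0.89), each with adjusted p = 1.00 (limma). For the other 11 probe sets it ran from -0.36 (Cyp2c50) to 0.27 (Cyp2c37). In this comparison 0 of 14 members were called, against 0% of all probe sets, and 0 members but 536 probe sets had an unadjusted p under 0.05. These values too come from the fit that ignores the pairing by mouse, and those with the pairing kept follow.

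In both paired WT mice the drug array was the higher one for Cyp2c65 and Cyp2c55. Both treatments were arrayed for 4 of the 6 mice. For Cyp2c65, rosiglitazone minus vehicle was -0.05 in KO mouse 44 and -0.10 in KO mouse 46, against 0.56 in WT mouse 42 and 1.08 in WT mouse 47. For Cyp2c55 it was -0.19 in KO mouse 44 and -0.86 in KO mouse 46, against 0.33 in WT mouse 42 and 0.63 in WT mouse 47. Both WT mice were thus higher and both KO mice lower with the drug, with the KO values of Cyp2c65 below background. Cyp2c66 followed no such split, at -0.21 in KO mouse 44 and 0.45 in KO mouse 46, against 0.97 in WT mouse 42 and -0.40 in WT mouse 47. The WT mouse without a vehicle array, mouse 48, had the lowest WT reading of Cyp2c65 and Cyp2c55. With each mouse as a fixed block, which sets this array aside, the WT drug difference was 0.82 for Cyp2c65 (SE 0.15, adjusted p = 0.638, limma) and 0.48 for Cyp2c55 (SE 0.18, adjusted p = 1.00). The KO drug difference in the same fit was -0.07 for Cyp2c65 (SE 0.15, adjusted p = 0.942, limma) and -0.53 for Cyp2c55 (SE 0.18, adjusted p = 0.64). The difference of the responses was -0.89 for Cyp2c65 (SE 0.21, adjusted p = 0.913, limma) and -1.01 for Cyp2c55 (SE 0.26, adjusted p = 0.957). No call changed. Without the block the WT drug difference was 0.10 (SE 0.56) for Cyp2c65 and 0.04 (SE 0.50) for Cyp2c55. The KO drug difference without it was -0.14 (SE 0.56) and -0.27 (SE 0.50) in the same order. The difference of the responses without it was -0.24 (SE 0.79) and -0.31 (SE 0.71). In all, 3 of 14 members (Cyp2c65, Cyp2c55 and the probe set with several symbols, which is below background) were higher with the drug in both paired WT mice and lower in both paired KO mice, against 6.01% of all probe sets. Without the arrays of mouse 46 the Cyp2c55 difference in KO was 0.36 in place of -0.27.

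**Figure D5:**
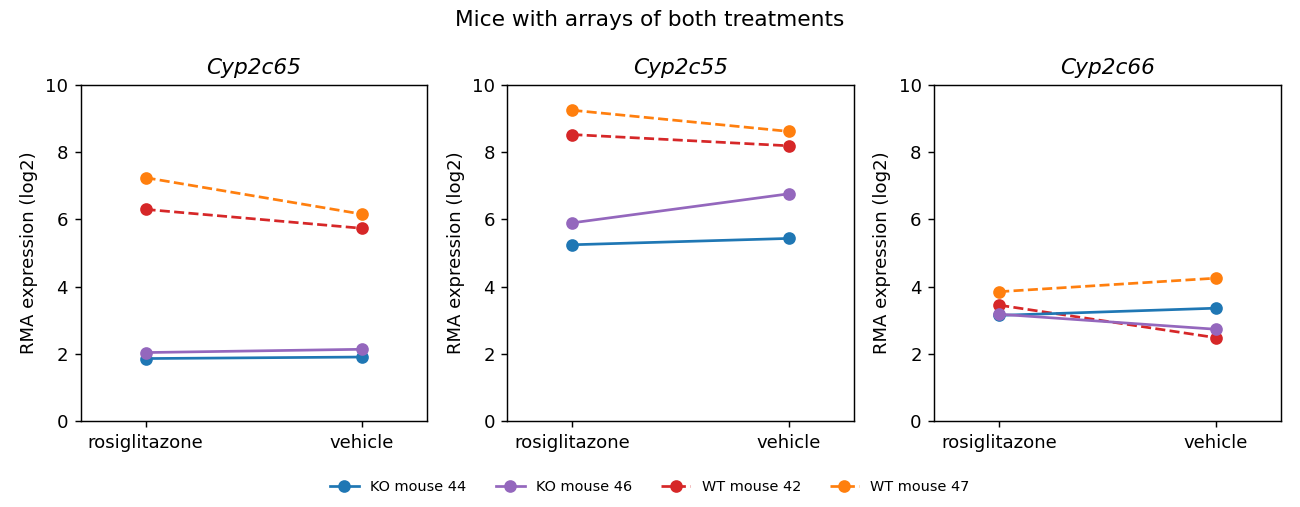
RMA expression (log2) of Cyp2c65, Cyp2c55 and Cyp2c66 with rosiglitazone and with vehicle in the 4 mice that gave both arrays. Each line joins the arrays of 1 mouse, solid for KO and dashed for WT. The WT lines of Cyp2c65 and Cyp2c55 are higher with rosiglitazone, by 0.33 to 1.08, and the Cyp2c66 lines cross.

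The labelled tissue and other cell types were read from marker lists. Of 12 measured colonocyte markers, 10 or 11 were above background on each array. Aqp8, a water channel of surface colonocytes, was above it on 0 of 10 arrays, and Slc26a3 on 2. The mean level of the list ran from 7.37 to 7.73 in KO rosiglitazone, 7.09 to 7.26 in KO vehicle, 7.17 to 7.80 in WT rosiglitazone and 7.66 to 7.99 in WT vehicle. Over all 23099 probe sets, KO minus WT had an unadjusted p under 0.05 (limma) for 1110 in rosiglitazone and 1314 in vehicle. In vehicle 10 of 12 colonocyte markers read lower in KO, with a median of -0.18 and 0 called (3 at an unadjusted p under 0.05, limma). Guca2a, which encodes guanylin, differed by -2.19 (SE 0.52), Slc9a3, a sodium-proton exchanger of the apical membrane, by -3.08 (SE 0.53), and Car1, a carbonic anhydrase of colonocytes, by -0.87 (SE 0.25). In rosiglitazone 7 of 12 read lower in KO, with a median of -0.03 and 0 called (2 at an unadjusted p under 0.05). Those 2 were Slc5a8, a sodium-coupled transporter of short-chain fatty acids, at 1.28 (SE 0.31), against 0.60 (SE 0.38) in vehicle, and Car1 at -0.57 (SE 0.20). Slc9a3 differed by -0.57 (SE 0.44) and Guca2a by 0.32 (SE 0.42) in rosiglitazone. The goblet cell list ran from 3.79 to 8.53 in KO rosiglitazone, 3.85 to 5.63 in KO vehicle, 4.15 to 5.32 in WT rosiglitazone and 5.21 to 5.75 in WT vehicle. Of its 7 measured markers, 7 read higher in KO in rosiglitazone (median 1.24) and 5 read lower in KO in vehicle (median -0.94), with 0 called and 0 at an unadjusted p under 0.05 in either (limma). The deep crypt secretory and Paneth list ran from 3.85 to 6.59 in KO rosiglitazone, 4.03 to 4.47 in KO vehicle, 3.96 to 4.27 in WT rosiglitazone and 3.96 to 4.09 in WT vehicle. Of its 6 measured markers, 5 read higher in KO in rosiglitazone (median 0.93) and 5 in vehicle (median 0.32), with 0 called in either (2 and 0 at an unadjusted p under 0.05, limma). Of 6 measured hepatocyte markers, Alb, Ttr, Fgb and Cps1 were above background on 0 of 10 arrays, Apoa1 on 10 and Tat on 8. Apoa1 averaged 4.44 in KO rosiglitazone, 3.65 in KO vehicle, 3.37 in WT rosiglitazone and 2.95 in WT vehicle, and Tat averaged 4.45, 4.21, 5.25 and 5.78 in the same order. Of 6 small intestinal enterocyte markers, Apoa4, Alpi and Rbp2 were above background on 10 of 10 arrays, Sis on 3, Fabp1 on 1 and Lct on 0. Of 4 fibroblast markers 2 were above background on each array, and of 3 endothelial markers at most 1 was. The part of cell composition in the Cyp2c differences was not tested.

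The measured genes of the lists of Cyp2c partners showed no difference past the test in any of the 5 comparisons. Over all 23099 probe sets, 0.0216% were called for KO minus WT in rosiglitazone and 0% in each other comparison. From 229 to 1314 of them had an unadjusted p under 0.05 (limma) in a comparison. In lists of 14 and 8 measured genes, 0 or 1 is near these shares and supports nothing about the partners. The list of epoxygenases of the Cyp2j family, epoxide hydrolases and phospholipases had 14 of 15 genes measured, with 0 called and at most 1 at an unadjusted p under 0.05 in a comparison. Its median KO minus WT difference was 0.10 in rosiglitazone and 0.12 in vehicle, against 0.00 and 0.03 over all probe sets. Ephx1, the microsomal epoxide hydrolase, averaged 10.8 in KO rosiglitazone, 10.9 in KO vehicle, 11.0 in WT rosiglitazone and 10.9 in WT vehicle. Ephx2, the soluble epoxide hydrolase that hydrolyses fatty acid epoxides, differed by -0.02 (SE 0.20) in rosiglitazone and 0.30 (SE 0.24) in vehicle, KO minus WT. Pla2g4a, the cytosolic phospholipase that releases arachidonic acid, differed by 0.23 (SE 0.26) in rosiglitazone and -0.58 (SE 0.31) in vehicle. The list of redox partners and haem supply had 8 of 10 genes measured, without Por, the P450 reductase itself, and Hmox2, with 0 called and 0 at an unadjusted p under 0.05, and its median was 0.04 in rosiglitazone and 0.01 in vehicle. Cyb5a, cytochrome b5, which can pass electrons to P450 enzymes, differed by 0.14 (SE 0.11) in rosiglitazone and -0.07 (SE 0.14) in vehicle.

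Of 20 receptors and factors known to act on Cyp2c genes, Nr1i3, which encodes CAR, was not measured. The other 19 were measured, and each was above background on all 10 arrays. None was called, 1 had an unadjusted p under 0.05 in rosiglitazone and 0 did in vehicle, and the median KO minus WT difference was -0.12 in both treatments. Hnf4g, a paralogue of HNF4α expressed in gut, differed by 0.58 (SE 0.20, adjusted p = 0.957, limma) in rosiglitazone and 0.13 (SE 0.24) in vehicle. Foxa2, a forkhead factor of endoderm, differed by -0.47 (SE 0.22) in rosiglitazone and -0.44 (SE 0.27) in vehicle, and Cdx2, the intestinal homeobox factor, by -0.17 (SE 0.12) and -0.26 (SE 0.15) in the same order. Of 38 other drug-metabolism genes of the intestine 33 were measured, and 0 were called in any comparison. For KO minus WT, 2 had an unadjusted p under 0.05 (limma) in rosiglitazone and 6 in vehicle. Over all 23099 probe sets 1110 did in rosiglitazone and 1314 in vehicle. The median KO minus WT difference of the 33 genes was 0.02 in rosiglitazone and -0.04 in vehicle. Abcg2, a drug efflux pump, differed by -0.07 (SE 0.21) in rosiglitazone and -0.74 (SE 0.26) in vehicle, and Cyp3a13 by 0.51 (SE 0.22) in rosiglitazone and -0.30 (SE 0.27) in vehicle.

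Outside the 2C subfamily there were 77 other cytochrome P450 probe sets. Their genotype groups were separate for Cyp2d34, which read 6.77 to 7.39 in KO arrays and 7.42 to 7.89 in WT arrays, and for Cyp4f39, which read 2.87 to 3.21 in KO arrays and 2.64 to 2.81 in WT arrays. Those are 1.3% of the 77 in each direction, near the shares over all probe sets. The lowest adjusted p among the 77 was 0.602 (limma), for Cyp4f39 in rosiglitazone.

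Genes outside the Cyp2c family were ranked by how like their pattern over the 10 arrays was to that of Cyp2c65 and of Cyp2c55. Cyp2c probe sets, probe sets with several symbols and predicted gene models were left out before the ranking. The 8 genes with the highest Pearson r are given for each. For Cyp2c65 these were 1810065E05Rik (r = 0.994), Fut2 (0.961), Fa2h (0.961), Foxd2 (0.959), Them4 (0.958), Cmbl (0.952), Car13 (0.951) and Ank (0.946). For Cyp2c55 they were Clcn2 (r = 0.952), Igdcc4 (0.938), 1810065E05Rik (0.935), Car13 (0.933), Them4 (0.931), Sh3glb2 (0.931), Vps13d (0.927) and Lrrc51 (0.925). The lists shared 3 genes, 1810065E05Rik, Them4 and Car13. With the Cyp2c genes themselves left out, they held 0 genes of chromosome 19. The share of that chromosome among all ranked genes was not counted, so this 0 supports nothing about the locus. Each listed gene had all KO arrays below all WT arrays, the same split as in the leads they were picked to resemble, and arrays of one mouse are not independent. 1810065E05Rik read 3.23 to 4.13 in KO arrays and 7.36 to 10.5 in WT arrays. Fut2, a fucosyltransferase of mucosal glycans, read 8.93 to 9.12 in KO arrays and 9.30 to 9.81 in WT arrays. Fa2h, which hydroxylates fatty acids of sphingolipids, read 4.29 to 4.78 in KO arrays and 5.19 to 6.63 in WT arrays, and Clcn2, an epithelial chloride channel, read 6.01 to 6.71 in KO arrays and 7.01 to 7.33 in WT arrays.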

How the data were processed

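Expression was measured on 10 arrays in 4 groups. The deposited values are log2 expression computed with RMA per the submitters' processing notes, for which no version, chip definition or genome build is stated in the labels. Of 35556 probe sets, 23099 had a platform annotation and were tested, and 12457 without one were left out. All columns were mapped by title, and 0 pairs of arrays were identical. Arrays give no count depth, so their number limits the precision.

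Group means were fitted over all 10 arrays with limma 3.58.1 in R 4.3.3 (lmFit, contrasts, eBayes, 6 residual and 4.39 prior degrees of freedom), two-sided, with Benjamini-Hochberg adjustment over 23099 probe sets at 0.05, for 5 comparisons. The fit was tested on simulated data with independent arrays. Those data held no mouse effect, so that test does not cover the pairing of arrays by mouse. Mice pair the arrays, because the labels name the donor: differences between mice correlated between treatments at r = 0.487 in KO and 0.44 in WT, and 8 of 8 arrays correlated best with their own mouse. The numbering in the sample titles was not used for pairing, since it does not follow the donor. Alternatives were the mouse as a random block (statmod 1.5.0, consensus correlation 0.438) or fixed block, the 4 paired mice only, only the groups compared, repeated quantile normalization, centring, a filter at the median level, all probe sets, a trended robust fit, other background percentiles and each array left out. Leaving out mouse 46 was chosen after seeing the data.

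The members, the gene lists and the motifs were chosen with earlier results of these data known. Named genes are all Cyp2c probe sets, Pparg, the list members with the smallest p (at most 6 a list) and markers. Also named are the 8 genes outside the family most like Cyp2c65 and Cyp2c55 each, and the 3 protein-coding genes on each side. Cyp2d34 and Cyp4f39 were named after their values were seen. Gene names and order followed RefSeq on GRCm38.p6, matched by Entrez identifier for 21185 of 21218 single-symbol probe sets.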

Additional observations from a re-analysis of the deposited data

Results flagged for a closer look

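The drug response within paired mice had opposite signs in the 2 genotypes, in every mouse, for 3 Cyp2c probe sets. For Cyp2c65 the mean of rosiglitazone minus vehicle over the paired mice was -0.0713 in KO and 0.82 in WT (log2, n = 2 mice each). For Cyp2c55 it was -0.53 in KO and 0.48 in WT. For the probe set with the symbols Cyp2c69, Cyp2c67, Cyp2c68 and Cyp2c40 it was -0.0748 in KO and 0.0568 in WT, on readings below background throughout, and the KO readings of Cyp2c65 were below background as well. Over all annotated probe sets 11.8% had opposite signs of this kind in either direction. limma's test of the difference between the responses did not call any of the 3, with adjusted p = 1.00 without a block.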

How the results depend on the processing

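With 2 or 3 arrays a group and 3 mice a genotype, single arrays decide the counts of calls, and levels near background limit what can be said of Cyp2c66 and of Cyp2c65 in KO. The count of Cyp2c probe sets called for KO minus WT in rosiglitazone, 1 as reported, was 0 with only the groups compared, with repeated quantile normalization, with only probe sets above the median level (which keeps Cyp2c55 alone of the family), with all probe sets of the table, with the trended robust fit and without the arrays of mouse 46, and 0 to 2 when 1 array was left out. It stayed at 1 with the mouse as a random replicate block, with the 4 paired mice and with centring. In vehicle the count, 0 as reported, was 1 with the 4 paired mice and 1 with only the groups compared, and 0 to 1 when 1 array was left out. The block changed no call of a Cyp2c probe set. Over all probe sets the calls in rosiglitazone numbered 5 as reported, 16 with the paired mice, 1 with only the groups compared, with repeated quantile normalization, with all probe sets and without mouse 46, and up to 23 without WT rosiglitazone replicate 1. In vehicle they numbered 0 as reported, 6 with the paired mice, 4 with only the groups compared and 0 to 6 when 1 array was left out. Signs turned in these cases. Without mouse 46 the Cyp2c55 drug difference in KO was 0.36 and the difference of its responses 0.32. The Cyp2c66 drug difference in KO, -0.07 as reported, was 0.0123 with the random replicate block, 0.12 with the fixed replicate block and with the paired mice, 0.0243 with repeated quantile normalization and 0.0046 with centring. When 1 array was left out, the difference of the responses ran from -0.97 to 0.35 (Cyp2c55), -0.96 to 0.36 (Cyp2c65) and -1.32 to 0.45 (Cyp2c66). The drug difference in KO ran from -0.93 to 0.39 (Cyp2c55) and -0.38 to 0.24 (Cyp2c66), and that in WT from -0.36 to 0.48 (Cyp2c55), -0.50 to 0.82 (Cyp2c65) and -0.52 to 1.25 (Cyp2c66). KO minus WT in vehicle ran from -1.21 to 0.56 for Cyp2c66. The lowest difference among the other 11 probe sets ran from -0.25 to 0.017 in rosiglitazone and -0.43 to 0.0468 in vehicle, KO minus WT. The causes of these shifts were not tested.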
